A study of Saccharomyces cerevisiae with 12 samples.

Results

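Transcripts of 10 sulfur assimilation genes of budding yeast (Saccharomyces cerevisiae) were compared between cultures with and without MET17 reads. The genes were chosen by name as MET17, MET3, MET14, MET16, MET10, MET5, MET2, MET6, CYS3 and MUP1. They are 10 of the 12768 annotated features that were counted and of the 5585 matched to protein-coding genes, and all 10 passed the filter on low counts, which left 5561 genes. Polyadenylated RNA was sequenced from 12 cultures, 4 of each of 3 strains, grown without treatment in YPD, a rich medium, and harvested near an optical density of 0.5. The growth temperature is not given in the sources used here. pup2-ts cells carry a temperature-sensitive (ts) allele of PUP2, an alpha subunit of the proteasome core. rpn5-ts cells carry one of RPN5, which encodes a lid subunit of the proteasome's regulatory particle. By label, WT and both mutants are MATa and share the alleles his3Δ1, leu2Δ0, met15Δ0 and ura3Δ0, where MET15 is the older name of MET17. The names of WT replicates 3 and 4 carry By4741, a common laboratory strain. The mutants are labelled lys2Δ0 and can1Δ::LEU2-MFA1pr::His3 in addition, with URA3 inserted at the ts allele. The labels name 1 strain a group, so each mutant stands for 1 strain, and differences between strains cannot be told apart from differences between ts alleles.

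Yeast takes up sulfate and reduces it step by step to sulfide. Met17 joins the sulfide to O-acetylhomoserine, which Met2 makes, to give homocysteine, and Met6 methylates homocysteine to methionine. Cells that lack MET17 need organic sulfur from the medium, and rich medium holds methionine. Transcription of these genes is activated by Met4, which does not bind DNA by itself and is brought to promoters by Cbf1, Met28, Met31 and Met32. Met4 is held in check by ubiquitination through the F-box protein Met30. Cbf1 binds CACGTG, and Met31 and Met32 bind sites that contain TGTGGC.

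Those letters were searched for on both strands in the 300 bases before the start codon of each gene in the R64 genome (RefSeq, the assembly also called sacCer3). CACGTG was present upstream of 5 of the 10 genes, MET14, MET16, MET10, MET17 and CYS3, against 3.6% of the windows of all 5585 genes. TGTGGC was present upstream of 7 of 10, MUP1, MET3, MET14, MET16, MET5, MET10 and CYS3, against 8.2% of all windows. Both occurred upstream of MET14, MET16, MET10 and CYS3, against 0.4% of all windows, and neither upstream of MET2 and MET6. The 2 motifs share no base in these windows. Stretches of 70 bases from the windows with CACGTG follow, on the strand of the gene and 5′ to 3′. They are shown for MET17, whose reads divide the libraries, and for the 4 genes that hold both motifs. Capitals mark CACGTG and TGTGGC, the second also as its reverse complement GCCACA. The stretch of MET14 is chrXI:439564-439633 on the minus strand, that of MET16 chrXVI:877761-877830 on the minus strand, and that of MET10 chrVI:213043-213112 on the plus strand. Those of MET17 and CYS3 are chrXII:732222-732291 and chrI:130563-130632, both on the plus strand.
MET14: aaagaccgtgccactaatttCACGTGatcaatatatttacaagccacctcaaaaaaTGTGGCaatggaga
MET16: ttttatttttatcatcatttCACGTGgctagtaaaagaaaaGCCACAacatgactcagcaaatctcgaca
MET10: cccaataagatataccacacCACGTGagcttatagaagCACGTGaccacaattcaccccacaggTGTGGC
MET17: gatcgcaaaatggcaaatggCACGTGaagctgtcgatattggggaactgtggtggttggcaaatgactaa
CYS3: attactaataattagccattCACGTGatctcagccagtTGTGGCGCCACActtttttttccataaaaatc

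A match describes these letters and is not a mapped binding site. The first base of CACGTG lay 228 bases before the start codon of MET14, 178 before that of MET16, 249 and 231 before that of MET10, 300 before that of MET17 and 216 before that of CYS3. MET10 was the one gene of the 10 with CACGTG at 2 places, and CYS3 held TGTGGC on both strands side by side.

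MET17 (YLR303W, chrXII:732542-733876 in R64), the sulfhydrylase itself, is the gene that divides the libraries. Its raw counts were 5669, 5248, 16857 and 12142 in pup2-ts replicates 1 to 4, although those cells are labelled met15Δ0. The library labelled rpn5-ts replicate 1 held 8056 counts, while rpn5-ts replicates 2 to 4 held 0, 2 and 0. WT replicates 1 to 4 held 2, 1, 2 and 0. Thus 5 libraries had MET17 reads and 7 held 7 counts between them, with 3 of the 7 at 0. In CPM (counts scaled to 1e6 protein-coding reads, with TMM factors), MET17 stood at 196, 205, 587 and 566 in pup2-ts replicates 1 to 4. It reached 249 CPM in the one labelled rpn5-ts replicate 1. The other 7 libraries held at most 0.093 CPM. These levels define the comparison and carry no test. MET17 absence is therefore shared by WT and by rpn5-ts replicates 2 to 4, and among the labelled groups presence of MET17 and the pup2-ts strain cannot be told apart.

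LYS2, URA3 and CAN1 followed the labels in 11 libraries. LYS2, which the mutants are labelled to lack, held 0 to 0.21 CPM in pup2-ts libraries, 0 to 0.18 CPM in rpn5-ts replicates 2 to 4 and 120.3 to 207 CPM in WT. The library labelled rpn5-ts replicate 1 held 213 CPM of LYS2, above every WT library, and its URA3 (81.8 CPM) and CAN1 (12.8 CPM) were at mutant levels. URA3 stood at 94.0 to 122 CPM in pup2-ts, at 100.4 to 125 CPM in rpn5-ts replicates 2 to 4 and at 3.63 to 4.66 CPM in WT. CAN1, which the mutants are labelled to lack, was low but not at 0 in them, at 9.78 to 15.2 CPM in pup2-ts and 13.2 to 16.7 CPM in rpn5-ts replicates 2 to 4, against 176 to 224 CPM in WT. HIS3, for which all strains are labelled his3Δ1 and the mutants also a His3 insert, differed less sharply. It stood at 88.7 to 118 CPM in pup2-ts, above all WT libraries at 36.5 to 77.6 CPM. In rpn5-ts replicates 2 to 4 it held 67.4 to 105 CPM and overlapped WT through replicate 2. In the main edgeR fit of protein-coding genes, without the replicate block described below, it passed the threshold against WT in neither mutant. With the block it passed in both, at 0.84 on the log2 scale in pup2-ts and 0.55 in rpn5-ts. Without the block it also passed in pup2-ts with DESeq2 (0.78), upper-quartile factors (0.76) and all annotated features (0.92). With replicates 3 and 4 alone it passed in both mutants, at 0.57 in pup2-ts and 0.49 in rpn5-ts. The library labelled rpn5-ts replicate 1 was left out of the comparisons below because LYS2 goes against its label, and its values are given by themselves. Of 10 mating-type genes examined, the a-cell genes summed to 682 to 1122 CPM in pup2-ts, 754 to 759.9 CPM in rpn5-ts replicates 2 to 4 and 1185 to 1696 CPM in WT. The alpha-cell genes summed to 38.4 to 50.5, 55.3 to 56.3 and 43.7 to 61.2 CPM in the same groups, with the alpha pheromone genes MF(ALPHA)1 and MF(ALPHA)2 at most 2.70 and 1.09 CPM. The part of the a-cell difference in the results below was not tested, and in bulk RNA fewer cells of a kind and less RNA per cell cannot be told apart. Totals in protein-coding genes ran from 18.5 to 60.6 in units of 1e6 counts. Samples 3 and 4 of each strain have DNAse in their names, unlike samples 1 and 2. Between these forms of name 63.0% of genes differed. Values within each form therefore stand beside the pooled ones for pup2-ts against WT, and for some genes in the other comparisons.

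**Figure D1:**
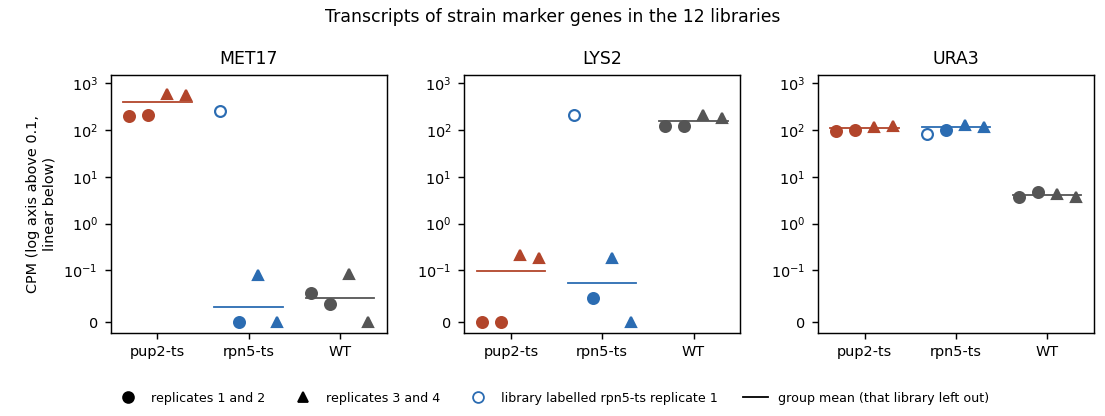
CPM of MET17, LYS2 and URA3 in each of the 12 libraries by labelled group, on an axis that is logarithmic above 0.1 and linear below. Points are libraries and lines are group means, and the open circle is the library labelled rpn5-ts replicate 1, which held MET17 at 249 CPM and LYS2 at 213 CPM.

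The neighbours of MET17 were read to see whether the pattern reached beyond the gene. HRI1, on one side of it, stood at 216 to 273 CPM in pup2-ts, at 237 to 244 CPM in rpn5-ts replicates 2 to 4, and at 139 to 218 CPM in WT. It was 241 CPM in the library labelled rpn5-ts replicate 1. ACO1, aconitase of the tricarboxylic acid cycle, lies on the other side and held 422 to 813 CPM in pup2-ts, 296 to 1329 CPM in rpn5-ts replicates 2 to 4 and 567 to 1806 CPM in WT. Both were expressed in all 12 libraries. Neither passed the threshold in the 4 comparisons of labelled groups in the main edgeR fit, without the replicate block described below. With the block, in pup2-ts against WT HRI1 rose by 0.39 on the log2 scale (edgeR adjusted p = 0.0074) and ACO1 fell by 0.74 (edgeR adjusted p = 0.017). HRI1 then also rose by 0.26 against the mean of WT and rpn5-ts (edgeR adjusted p = 0.045). With replicates 3 and 4 alone and no block, both passed in pup2-ts against WT, at 0.41 for HRI1 and −0.99 for ACO1. Both also passed there against the mean (0.28 and −0.86). In those replicates HRI1 passed in rpn5-ts against WT (0.27), and ACO1 in pup2-ts against rpn5-ts (−0.74). With all annotated features HRI1 passed in pup2-ts against WT (0.52). ACO1 was higher in replicates 3 and 4 than in replicates 1 and 2, by 1.34 on the log2 scale (edgeR adjusted p = 8.6e-05, with group as a term). The overlapping feature YLR302C was not analysed here.

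Across the 5 libraries with MET17 reads and the 7 without, no other gene of the 10 separated. The ranges of all 9 overlapped. Of the 5560 genes tested over 12 libraries 2.95% had ranges that did not, and 0 of 9 is near that share. CYS3 showed the widest ranges, 97.7 to 573 CPM with MET17 reads and 99.2 to 649.6 CPM without. MET5, at 69.6 to 88.5 CPM with MET17 reads and 73.8 to 92.4 CPM without, showed among the narrowest. The split was read from the counts themselves, so it is a description without a test. The tests below compare labelled groups, pup2-ts against WT and against rpn5-ts replicates 2 to 4, and they share libraries with each other.

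Methionine uptake comes first in the order of roles. MUP1 (YGR055W, chrVII:599417-601141), the high-affinity methionine permease, stood at 114, 149, 161 and 155 CPM in pup2-ts replicates 1 to 4, at 105, 147 and 157 CPM in rpn5-ts replicates 2 to 4 and at 264, 227, 195 and 183 CPM in WT replicates 1 to 4. All mutant libraries lay below all WT libraries, and the mutants overlapped each other. MUP1 fell by 0.58 on the log2 scale in pup2-ts against WT (SE 0.17, edgeR adjusted p = 0.040). It fell by 0.67 in rpn5-ts against WT (SE 0.18, edgeR adjusted p = 0.033), with MET17 absent from both groups. Between pup2-ts and rpn5-ts the log2 fold change was 0.09 with an SE of 0.18 (edgeR adjusted p = 0.91). At 176 CPM, the library labelled rpn5-ts replicate 1 lay between the mutants and WT. The pup2-ts call was lost without any 1 of pup2-ts replicates 1, 2, 3 or 4 (log2 fold changes −0.49, −0.60, −0.64 and −0.62), rpn5-ts replicate 3 (−0.58) or WT replicates 1, 2 or 3 (−0.49, −0.56 and −0.63), and with all annotated features in the fit (−0.42). The rpn5-ts call was lost without rpn5-ts replicate 2 or 3 (−0.51 and −0.72), without WT replicate 1 or 2 (−0.58 and −0.65), with all annotated features (−0.57) and with the library labelled rpn5-ts replicate 1 included (−0.57).

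The first steps of sulfate activation moved in opposite directions in pup2-ts. MET3 (YJR010W, chrX:456239-457774), ATP sulfurylase, which makes adenylyl sulfate, stood at 31.9, 38.0, 32.1 and 31.0 CPM in pup2-ts replicates 1 to 4. It stood at 33.4, 39.0 and 38.8 CPM in rpn5-ts replicates 2 to 4 and at 50.4, 46.9, 44.1 and 36.6 CPM in WT replicates 1 to 4. Only pup2-ts replicate 2 overlapped WT, through WT replicate 4. MET3 fell by 0.42 on the log2 scale in pup2-ts against WT (SE 0.12, edgeR adjusted p = 0.035). Against rpn5-ts the log2 fold change was −0.16 (SE 0.13, edgeR adjusted p = 0.71), and the library labelled rpn5-ts replicate 1 held 45.2 CPM. The call was lost without pup2-ts replicate 1, 3 or 4 (−0.40, −0.40 and −0.39), rpn5-ts replicate 3 (−0.42) or WT replicate 2 or 3 (−0.39 and −0.42), and with replicates 1 and 2 alone (−0.47). With all annotated features the log2 fold change was −0.26 and did not pass (edgeR adjusted p = 0.10).

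MET14 (YKL001C, chrXI:438777-439385), the kinase that phosphorylates adenylyl sulfate, was the one gene of the 9 that rose in pup2-ts against WT. It stood at 47.6, 54.5, 72.7 and 72.0 CPM in pup2-ts replicates 1 to 4, at 48.2, 53.7 and 57.8 CPM in rpn5-ts replicates 2 to 4 and at 39.3, 40.4, 44.9 and 41.6 CPM in WT replicates 1 to 4. Every mutant library was above every WT library, and pup2-ts overlapped rpn5-ts. In pup2-ts MET14 rose by 0.57 on the log2 scale against WT (SE 0.14, edgeR adjusted p = 0.019). In rpn5-ts the log2 fold change against WT was 0.36 (SE 0.15, edgeR adjusted p = 0.13), and 0.28 at an adjusted p of 0.047 with the replicate number as a block. Between the mutants it was 0.21 (SE 0.15, edgeR adjusted p = 0.66). With 49.8 CPM, the library labelled rpn5-ts replicate 1 lay between pup2-ts replicates 1 and 2. The pup2-ts call was lost without pup2-ts replicate 3 or 4 (0.48 and 0.49) or WT replicate 1 (0.53), and with replicates 1 and 2 alone (0.36).

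MET16 (YPR167C, chrXVI:876847-877632) reduces the activated sulfate to sulfite. It held 22.1, 21.1, 23.0 and 21.9 CPM in pup2-ts replicates 1 to 4, 18.6, 16.5 and 14.7 CPM in rpn5-ts replicates 2 to 4 and 28.0, 22.4, 19.8 and 19.96 CPM in WT replicates 1 to 4. The pup2-ts values fell inside the WT range and above all 3 rpn5-ts values. Differences did not pass the threshold in pup2-ts against WT (log2 fold change −0.03, SE 0.13, edgeR adjusted p = 0.90) or against rpn5-ts (0.41, SE 0.14, edgeR adjusted p = 0.30). In rpn5-ts against WT the log2 fold change was −0.44 (SE 0.14, edgeR adjusted p = 0.056), and −0.38 at an adjusted p of 0.036 with the block. Without the block that difference also passed with relative log expression factors (−0.45), with DESeq2 (−0.45) and with replicates 3 and 4 alone (−0.34). In the library labelled rpn5-ts replicate 1 MET16 held 26.4 CPM, above the other rpn5-ts libraries.

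The 2 subunits of sulfite reductase showed the smallest spread of the 10 genes, with the highest library at 1.33 times the lowest for MET5 and 1.34 times for MET10. MET5 (YJR137C, chrX:678957-683285), the beta subunit, held 69.6, 72.8, 76.7 and 74.4 CPM in pup2-ts replicates 1 to 4, 75.0, 73.8 and 78.6 CPM in rpn5-ts replicates 2 to 4 and 85.4, 92.4, 87.0 and 76.7 CPM in WT replicates 1 to 4. pup2-ts replicate 3 came within rounding of WT replicate 4, and rpn5-ts overlapped both other groups. MET10 (YFR030W, chrVI:213312-216419), the alpha subunit, held 66.8, 62.2, 69.3 and 63.1 CPM in pup2-ts, 73.6, 69.4 and 71.0 CPM in rpn5-ts replicates 2 to 4 and 83.1, 71.7, 75.3 and 73.7 CPM in WT. All 4 pup2-ts libraries lay below the others, the closest being rpn5-ts replicate 3. The log2 fold change of each gene in pup2-ts against WT was −0.22 (SE 0.08 for both, edgeR adjusted p = 0.090 for MET5 and 0.083 for MET10). With the block these became adjusted p values of 0.032 for MET5 and 0.019 for MET10 at the same log2 fold change of −0.22. Both also passed without the block by DESeq2 (DESeq2 adjusted p = 0.029 for MET5 and 0.027 for MET10). With all annotated features the log2 fold change of each was −0.06 and did not pass (edgeR adjusted p = 0.65 and 0.66).

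Downstream of sulfide, libraries of the same strain spread widely. MET2 (YNL277W, chrXIV:117349-118809), homoserine O-acetyltransferase, held 15.9, 21.0, 24.4 and 25.3 CPM in pup2-ts replicates 1 to 4, 15.7, 13.2 and 12.3 CPM in rpn5-ts replicates 2 to 4 and 48.9, 17.2, 10.1 and 8.10 CPM in WT replicates 1 to 4. WT alone spanned from the highest to the lowest level of the 12 libraries. MET2 was higher in pup2-ts than in every rpn5-ts library used, but the difference did not pass the threshold (log2 fold change 0.66, SE 0.53, edgeR adjusted p = 0.71). Against WT it was 0.04 (SE 0.48, edgeR adjusted p = 0.97). An annotated unit on the other strand, which covers 94.0% of MET2, held 17.0 to 20.9 CPM in pup2-ts, 19.6 to 24.1 CPM in rpn5-ts replicates 2 to 4 and 24.3 to 39.3 CPM in WT. Its part in the MET2 counts was not tested. For the other 4 members with an opposite unit over at least 50% of the gene (MET3, MET16, MET5 and MET6), the unit held at most 2.60 CPM in any library.

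MET6 (YER091C, chrV:339864-342167), methionine synthase, held 72.9, 87.6, 272 and 258 CPM in pup2-ts replicates 1 to 4, 63.3, 144 and 146 CPM in rpn5-ts replicates 2 to 4 and 174, 157, 379.8 and 267 CPM in WT replicates 1 to 4. In each strain replicates 3 and 4 were above replicates 1 and 2, and within a form of name WT was above pup2-ts in all but 1 pair of libraries. The log2 fold change in pup2-ts against WT was −0.50 (SE 0.48, edgeR adjusted p = 0.55), and with the block −0.66 at an adjusted p of 0.015. In rpn5-ts against WT it was −1.05 (SE 0.53, edgeR adjusted p = 0.20), and with the block −1.30 at an adjusted p of 0.0015. In pup2-ts against rpn5-ts MET6 did not pass with or without the block. With name form as a factor it passed at 0.64, and with replicates 3 and 4 alone at 0.87, both higher in pup2-ts. CYS3 (YAL012W, chrI:130799-131983), cystathionine gamma-lyase, makes cysteine from the methionine branch. It held 102, 97.7, 551 and 573 CPM in pup2-ts replicates 1 to 4, 99.2, 649.6 and 620.0 CPM in rpn5-ts replicates 2 to 4 and 143, 126, 470.2 and 446 CPM in WT replicates 1 to 4. All strains were low in replicates 1 and 2 and high in replicates 3 and 4. CYS3 did not pass the threshold in pup2-ts against WT (log2 fold change 0.16, SE 0.76, edgeR adjusted p = 0.92) or against rpn5-ts (−0.46, SE 0.82, edgeR adjusted p = 0.89). The library labelled rpn5-ts replicate 1 held 129 CPM of MET6, 117 CPM of CYS3 and 24.5 CPM of MET2.

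**Figure D2:**
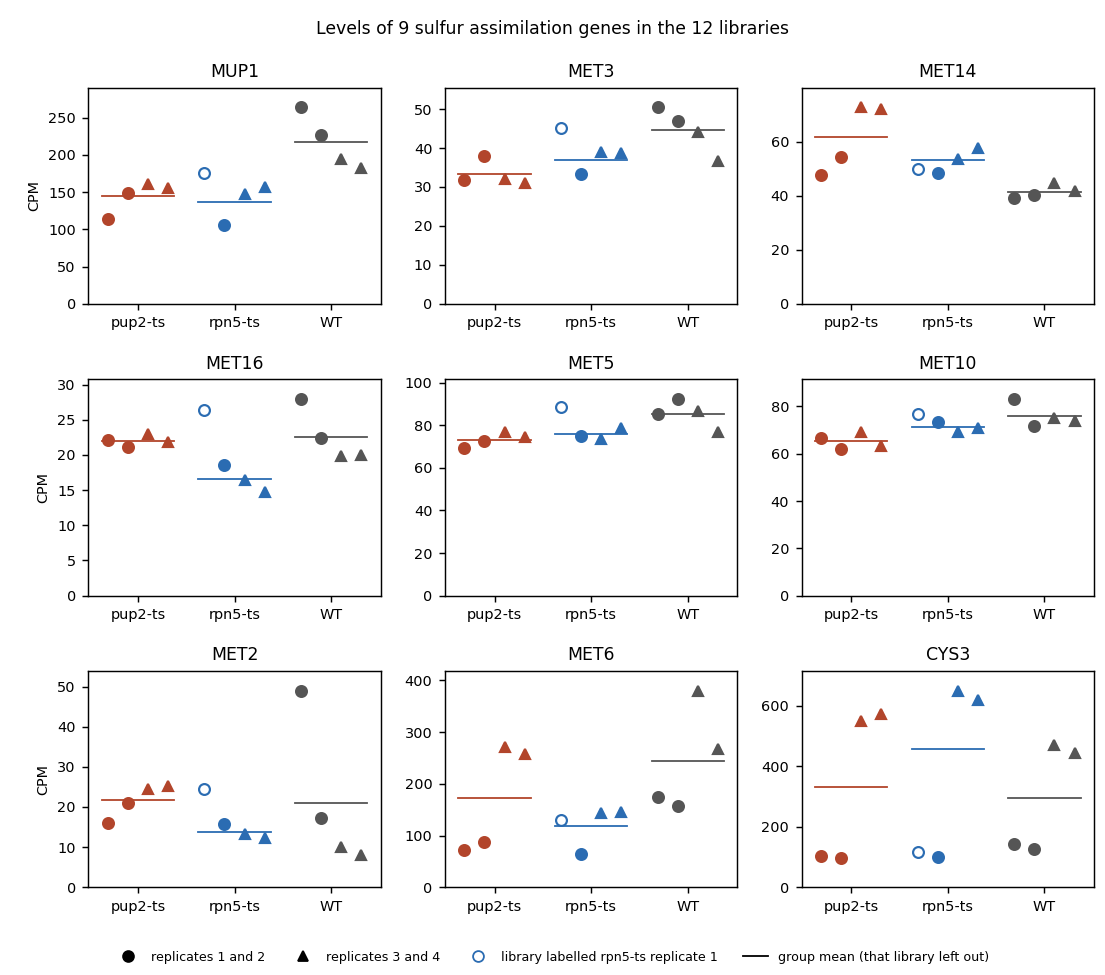
CPM of the 9 genes other than MET17 in each library, by labelled group. Circles are replicates 1 and 2, triangles replicates 3 and 4, lines group means without the open circle, the library labelled rpn5-ts replicate 1; MUP1 lies below and MET14 above WT in both mutants, and CYS3 splits by replicate in all strains.

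Counted together, 3 of the 9 genes passed the threshold in pup2-ts against WT, 1 higher and 2 lower, where 15.7% of all genes passed. In pup2-ts against rpn5-ts, 0 of 9 passed by edgeR (1 at an unadjusted p under 0.05, and 0 with DESeq2), where 0.827% of all genes passed. Against the mean of WT and rpn5-ts, the contrast that follows presence of MET17 reads most closely, 0 of 9 passed by edgeR (3 at an unadjusted p under 0.05, and 0 with DESeq2), where 4.73% of all genes passed. In rpn5-ts against WT, both without MET17 reads, 1 of 9 passed, where 16.9% of all genes passed. All-gene calls in the contrast on the mean were 171 higher and 92 lower, or 65.0% higher, and with upper-quartile factors 120 higher and 102 lower, or 54.1% higher. The median log2 fold change of the 9 genes was −0.22 in pup2-ts against WT (−0.02 over all genes tested), 0.09 against rpn5-ts (0.01 over all genes) and −0.13 against the mean of both (0.00 over all genes). In rpn5-ts against WT it was −0.27 (−0.02 over all genes).

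Same-numbered libraries shared deviations from the group means (correlation 0.32 to 0.86), so the counts with the replicate block stand beside these. Libraries of the same form and another number shared them as well (0.40 to 0.82), so number and form cannot be told apart here. With the block, 6 of 9 passed in pup2-ts against WT (MET14 higher, and MUP1, MET3, MET5, MET10 and MET6 lower), where 41.3% of all genes passed. Against rpn5-ts 0 of 9 passed (4 at an unadjusted p under 0.05), where 6.67% of all genes passed. Against the mean of WT and rpn5-ts 2 passed, MET14 higher (log2 fold change 0.41, edgeR adjusted p = 0.0076) and MET10 lower (−0.19, edgeR adjusted p = 0.040), where 21.3% of all genes passed. In rpn5-ts against WT 4 passed (MET14 higher, and MUP1, MET16 and MET6 lower), where 41.5% of all genes passed. With replicates 3 and 4 alone 4 of 9 passed against the mean, where 2929 of 5556 genes passed. MET14 (log2 fold change 0.57), MET16 (0.35) and MET2 (1.225) were higher and MET3 (−0.32) lower. Against rpn5-ts 6 of 9 passed in those replicates, where 1896 of 5556 genes passed. MET14 (0.375), MET16 (0.52), MET2 (0.96) and MET6 (0.87) were higher in pup2-ts, and MET3 (−0.30) and CYS3 (−0.18) lower.

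**Figure D3:**
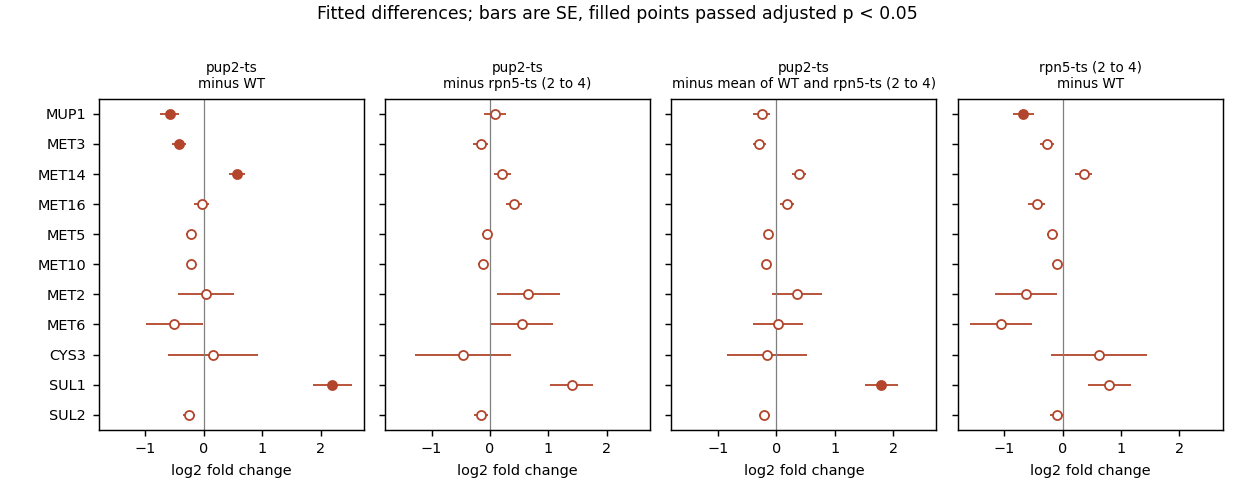
Fitted log2 fold changes of the 9 genes and of SUL1 and SUL2 in 4 comparisons of the labelled groups, with bars of 1 SE; filled points passed the adjusted p threshold of 0.05. MUP1, MET3, MET14 and SUL1 passed in pup2-ts against WT, SUL1 alone of those shown passed against the mean of WT and rpn5-ts, and MUP1 alone in rpn5-ts against WT.

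Levels per kilobase of annotated length placed the genes in order within a group, here over libraries of both forms of name, between which CYS3 and MET6 changed place. In pup2-ts MET17 (291 ± 163 CPM per kb) and CYS3 (247 ± 199) led (SD, n = 4), with SDs that hold the shift between forms of name. Library by library, MET17 was above CYS3 in replicates 1 and 2, at 147 and 154 CPM per kb. It was near CYS3 in replicates 3 and 4, at 439 and 424. The place of CYS3 came from replicates 3 and 4, at 411 and 428 CPM per kb. In pup2-ts replicates 1 and 2 it held 76.2 and 72.95 CPM per kb, beside MUP1 at 60.1 and 78.5 and MET14 at 65.3 and 74.6. MET14 (84.5 ± 17.3), MUP1 (76.3 ± 11.1) and MET6 (66.4 ± 41.2) followed with overlapping ranges. MET16 (23.8 ± 0.84) and MET10 (19.9 ± 1.01) came next, then MET5 (16.3 ± 0.67) and MET3 (15.9 ± 1.52), whose ranges overlapped, and MET2 (12.7 ± 2.48) was lowest. In rpn5-ts replicates 2 to 4 the order was CYS3 (341 ± 231), MET14 (73.0 ± 6.60), MUP1 (71.9 ± 14.4), MET6 (45.3 ± 18.2), MET10 (21.7 ± 0.65), MET16 (17.9 ± 2.12), MET3 (17.7 ± 1.52), MET5 (16.8 ± 0.55) and MET2 (8.02 ± 1.02), with MET17 at 0.02 ± 0.04 CPM per kb (SD, n = 3). In WT CYS3 (221 ± 139.7) was followed by MUP1 (114 ± 19.1), MET6 (94.1 ± 39.4), MET14 (56.9 ± 3.32), MET16 (24.4 ± 4.12), MET10 (23.1 ± 1.52), MET3 (21.3 ± 2.81), MET5 (19.0 ± 1.44) and MET2 (12.3 ± 11.1), with MET17 at 0.03 ± 0.03 CPM per kb (SD, n = 4). In WT replicates 1 and 2 CYS3 (106.8 and 94.3 CPM per kb) was below MUP1 (139 and 119.5), and in WT replicates 3 and 4 (351 and 333) above it (102.6 and 96.4). In rpn5-ts replicate 2 CYS3 held 74.05 CPM per kb, against 485 and 463 in rpn5-ts replicates 3 and 4. MUP1 was above MET14 per kb in all WT libraries, while in both mutants their ranges overlapped.

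Some of these genes differed between the forms of name. In a comparison added after the data were seen, replicates 3 and 4 against replicates 1 and 2 with group as a term, CYS3 rose by 2.26 (SE 0.14), MET6 by 1.31 (SE 0.14) and MET14 by 0.29 (SE 0.07) on the log2 scale. Their edgeR adjusted p values were 3.4e-07, 1.5e-05 and 0.0049. No other gene of the 9 passed, so 3 of 9 did, where 63.0% of all genes passed in either direction. MET17 followed the same pattern in the libraries that held it, with means of 576 CPM in pup2-ts replicates 3 and 4 and 200.5 CPM in replicates 1 and 2, a ratio of 2.87. CYS3 averaged 562 CPM in pup2-ts replicates 3 and 4 and 99.8 CPM in replicates 1 and 2. MET2 in WT went the other way, averaging 9.08 CPM in replicates 3 and 4 and 33.1 CPM in replicates 1 and 2.

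The difference between pup2-ts and WT itself depended on the form for several genes. The interaction of form and strain, likewise added after the data were seen, passed for 5 of 9 genes, all more positive in replicates 3 and 4, where 16.6% of all genes passed. MET2 differed most, by 2.32 on the log2 scale (SE 0.59, edgeR adjusted p = 0.036). Within replicates 3 and 4 its log2 fold change in pup2-ts against WT was 1.49, and within replicates 1 and 2 it was −0.84. For CYS3 the interaction was 0.73 (SE 0.11, edgeR adjusted p = 0.0066), with 0.30 in replicates 3 and 4 and −0.43 in replicates 1 and 2. MET6 differed by 0.76 (SE 0.21, edgeR adjusted p = 0.042), with −0.27 in replicates 3 and 4 and −1.04 in replicates 1 and 2. For MUP1 it was 0.64 (SE 0.17, edgeR adjusted p = 0.036), with −0.25 in replicates 3 and 4 and −0.89 in replicates 1 and 2. MET14 was higher in pup2-ts in both forms, by 0.76 in replicates 3 and 4 and by 0.36 in replicates 1 and 2, and its interaction was 0.39 (SE 0.11, edgeR adjusted p = 0.048). MET3 stayed negative in both, at −0.33 in replicates 3 and 4 and −0.47 in replicates 1 and 2. The interaction rests on 2 libraries of each form for pup2-ts and for WT. Of the libraries that share strain and form, WT replicates 1 and 2 differed most from each other, and they held MET2 at 48.9 and 17.2 CPM.

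**Figure D4:**
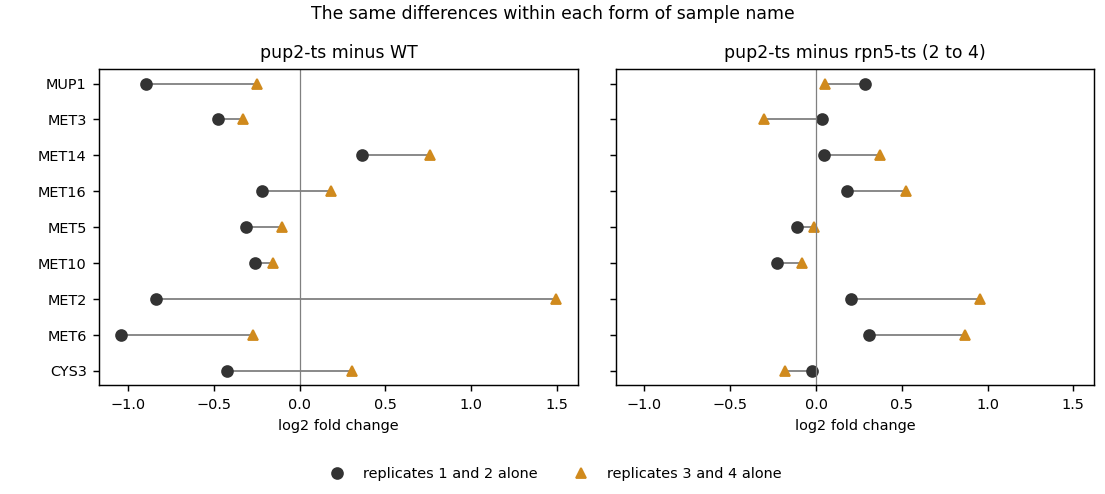
Log2 fold changes of the 9 genes fitted within replicates 1 and 2 (circles) and within replicates 3 and 4 (triangles), for pup2-ts against WT on the left and against rpn5-ts replicates 2 to 4 on the right, on 1 shared axis. MET2, MET16 and CYS3 change sign between forms on the left, while MET14 stays positive and MUP1, MET3, MET5, MET10 and MET6 stay negative.

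The library labelled rpn5-ts replicate 1, the fifth library with MET17 reads, was set beside libraries of the same form. It was higher than rpn5-ts replicate 2 for 9 of 9 genes. It was above both pup2-ts replicates 1 and 2 for 8 of 9, with MET14 between them. Against WT replicates 1 and 2 it was above both for MET14, below both for MUP1, MET3, MET6 and CYS3, and between them for the other 4. No test can be made with 1 library.

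Outside the 10 genes, a list of 36 genes of sulfur metabolism was followed in the same fits. In pup2-ts against WT 4 of 36 rose and 2 fell, where 15.7% of all genes passed. Against rpn5-ts 0 rose and 1 fell, where 0.827% passed. Against the mean of WT and rpn5-ts 2 rose and 1 fell, where 4.73% passed. In rpn5-ts against WT 2 rose and 4 fell, where 16.9% passed. The median log2 fold change of the list was 0.04 in pup2-ts against WT, 0.05 against rpn5-ts and 0.07 against the mean of both. With the block, 8 rose and 7 fell in pup2-ts against WT (41.3% of all genes passed) and 2 rose and 1 fell against rpn5-ts (6.67%). Likewise 5 rose and 3 fell against the mean of both (21.3%), and 4 rose and 7 fell in rpn5-ts against WT (41.5%).

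SUL1, a high-affinity sulfate permease, divided the libraries in the same way as MET17 reads. It held 3.31, 3.72, 6.86 and 6.52 CPM in pup2-ts replicates 1 to 4, 2.22, 1.81 and 1.76 CPM in rpn5-ts replicates 2 to 4 and 1.75, 0.84, 0.70 and 1.07 CPM in WT replicates 1 to 4. Since the library labelled rpn5-ts replicate 1 held 3.16 CPM, all 5 libraries with MET17 reads were above all 7 without. Of all genes, 2.95% had ranges that did not overlap in this split. SUL1 rose by 2.20 on the log2 scale in pup2-ts against WT (SE 0.34, edgeR adjusted p = 0.0016). Against the mean of WT and rpn5-ts it rose by 1.80 (SE 0.28, edgeR adjusted p = 0.0052). Against rpn5-ts alone the log2 fold change was 1.40 (SE 0.36, edgeR adjusted p = 0.16). That difference passed with DESeq2 (1.41), with name form as a factor (1.40) and with replicates 3 and 4 alone (1.90). The calls against WT and against the mean held when any 1 library was left out. With replicates 1 and 2 alone the values were 1.42 against WT and 1.02 against the mean, and neither passed. SUL1 in rpn5-ts replicates 2 to 4 also lay above all WT libraries, both without MET17 reads, the closest being 1.762 and 1.754 CPM. In rpn5-ts against WT its log2 fold change was 0.80 and did not pass. With replicates 3 and 4 alone it was 0.91 and passed. SUL1 is a low-level transcript, and its window holds neither motif. SUL2, the second sulfate permease, stood at 15.5 to 18.1 CPM in the libraries with MET17 reads and at 17.6 to 21.8 CPM in those without, and did not pass against the mean (log2 fold change −0.21, edgeR adjusted p = 0.28). In pup2-ts against WT its log2 fold change was −0.26 (edgeR adjusted p = 0.12), and −0.26 at an adjusted p of 0.043 with the block.

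MET22, the nucleotidase that removes the by-product of sulfate reduction, held 115, 114, 114 and 120.1 CPM in pup2-ts replicates 1 to 4, 102, 92.7 and 94.8 CPM in rpn5-ts replicates 2 to 4 and 77.3, 97.6, 89.0 and 85.8 CPM in WT replicates 1 to 4. With 135 CPM in the library labelled rpn5-ts replicate 1, its levels too did not overlap between the 5 libraries and the 7. In the list of 36, SUL1 and MET22 were the only genes so divided. Ranges without overlap were found for 2.95% of all genes. Among them was the a-cell gene BAR1, at 25.6 to 61.7 CPM with MET17 reads and 65.25 to 147 CPM without. MET22 rose by 0.41 on the log2 scale in pup2-ts against WT (SE 0.09, edgeR adjusted p = 0.010). Against the mean of WT and rpn5-ts it rose by 0.34 (SE 0.08, edgeR adjusted p = 0.032). The call against the mean was lost without any 1 of pup2-ts replicates 1 to 4 (0.34, 0.34, 0.34 and 0.32), rpn5-ts replicate 3 or 4 (0.32 each), or WT replicate 3 or 4 (0.34 and 0.33). It was also lost with upper-quartile factors (0.30, edgeR adjusted p = 0.099), with the library labelled rpn5-ts replicate 1 included (0.27, edgeR adjusted p = 0.20) and with replicates 1 and 2 alone (0.27). The call against WT was lost with replicates 1 and 2 alone (0.40). Against rpn5-ts MET22 had a log2 fold change of 0.26 (edgeR adjusted p = 0.31), and with the block 0.30 at an adjusted p of 0.049.

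SAM3, the S-adenosylmethionine permease, was lower in pup2-ts, at 48.2, 64.4, 49.7 and 50.4 CPM in replicates 1 to 4. It held 87.9, 82.2 and 83.9 CPM in rpn5-ts replicates 2 to 4 and 59.0, 66.5, 76.4 and 63.1 CPM in WT replicates 1 to 4. pup2-ts replicate 2 overlapped WT, and no pup2-ts library reached rpn5-ts. It fell by 0.67 on the log2 scale against rpn5-ts (SE 0.12, edgeR adjusted p = 0.037) and by 0.49 against the mean of WT and rpn5-ts (SE 0.10, edgeR adjusted p = 0.023). At 57.3 CPM, the library labelled rpn5-ts replicate 1 lay inside the pup2-ts range. With that library in its labelled group the values were −0.55 against rpn5-ts and −0.43 against the mean, and neither passed. The call against the mean was lost without pup2-ts replicate 1, 3 or 4 (−0.45, −0.46 and −0.47) or rpn5-ts replicate 3 or 4 (−0.50 and −0.51). That against rpn5-ts was lost without any of 8 single libraries, at log2 fold changes between −0.69 and −0.63. Both were lost with all annotated features (−0.39 against the mean and −0.61 against rpn5-ts) and with replicates 1 and 2 alone (−0.41 and −0.68). Against WT the log2 fold change was −0.32 in pup2-ts and 0.35 in rpn5-ts, and neither passed (edgeR adjusted p = 0.087 and 0.074). With the block both passed, at −0.32 and 0.31 (edgeR adjusted p = 0.018 and 0.033). Without the block both also passed with DESeq2 (−0.32 in pup2-ts and 0.35 in rpn5-ts) and with replicates 3 and 4 alone (−0.46 and 0.27). With all annotated features SAM3 passed in rpn5-ts against WT (0.43).

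Other genes of the list that passed against WT were named after their values were seen. JLP1, a sulfonate dioxygenase, and CYS4, cystathionine beta-synthase, rose in pup2-ts (by 0.63 and 0.47 on the log2 scale, edgeR adjusted p = 0.029 and 0.018) and in rpn5-ts (by 0.62 and 0.46, edgeR adjusted p = 0.041 and 0.026). MET1, which makes the siroheme precursor that sulfite reductase needs, fell by 0.59 in pup2-ts (edgeR adjusted p = 0.032), with −0.52 in rpn5-ts (edgeR adjusted p = 0.070). HOM2 and HOM3, which supply homoserine, fell by 0.63 and 0.42 in rpn5-ts (edgeR adjusted p = 0.043 for each), with −0.07 and 0.04 in pup2-ts. The pup2-ts calls were lost without any of 6 single libraries for JLP1, 2 for CYS4 and 7 for MET1, and the rpn5-ts calls without any of 7 for JLP1, 3 for CYS4, 10 for HOM2 and 8 for HOM3. With replicates 1 and 2 alone the calls of JLP1, CYS4, HOM2 and HOM3 were lost, JLP1 standing at 0.32 in pup2-ts (edgeR adjusted p = 0.36). With the library labelled rpn5-ts replicate 1 included, the rpn5-ts calls of JLP1, HOM2 and HOM3 were lost, at 0.56, −0.24 and −0.11. All annotated features ended the calls of MET1, HOM2 and HOM3, and upper-quartile factors that of HOM3. CYS4 is far the most abundant of these, at 1165 to 1226 CPM in pup2-ts, 1068 to 1253 CPM in rpn5-ts replicates 2 to 4 and 753 to 952 CPM in WT.

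Of 7 regulators, 0 passed against the mean of WT and rpn5-ts or against rpn5-ts by edgeR (0 and 1 at an unadjusted p under 0.05), where 4.73% and 0.827% of all genes passed, and 0 of 7 is near those shares. MET30, the F-box protein that restrains Met4, held 68.6, 72.5, 83.5 and 86.3 CPM in pup2-ts replicates 1 to 4, 71.7, 76.99 and 73.6 CPM in rpn5-ts replicates 2 to 4 and 114, 103.6, 90.8 and 102 CPM in WT replicates 1 to 4. Every mutant library was below every WT library. MET30 fell by 0.40 on the log2 scale in pup2-ts (SE 0.10, edgeR adjusted p = 0.023) and by 0.47 in rpn5-ts (SE 0.11, edgeR adjusted p = 0.017), each against WT. The pup2-ts call was lost without pup2-ts replicate 1 or 2 (−0.35 and −0.37) or WT replicate 2 or 4 (−0.40 each), and with all annotated features (−0.24, edgeR adjusted p = 0.13). The rpn5-ts call was lost without rpn5-ts replicate 2, 3 or 4 (−0.45, −0.50 and −0.47) and with replicates 1 and 2 alone (−0.56). GCN4, the activator of amino acid synthesis, fell by 0.59 in rpn5-ts against WT (SE 0.18, edgeR adjusted p = 0.043), a call lost with the library labelled rpn5-ts replicate 1 included (−0.42), with upper-quartile factors (−0.58), with all annotated features (−0.50), with replicates 1 and 2 alone (−0.54) and without any of 5 single libraries. MET4, CBF1, MET28, MET31 and MET32 did not pass in the 4 comparisons of the main edgeR fit, without the block. With it, MET31 fell by 0.29 in rpn5-ts against WT (edgeR adjusted p = 0.029).

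In the list of 36 genes the interaction of form with pup2-ts against WT passed for 15, with 12 more positive and 3 more negative in replicates 3 and 4, where 16.6% of all genes passed. The smallest adjusted p values, picked out after they were seen, were those of MUP3, a low-affinity methionine permease (1.79 on the log2 scale, edgeR adjusted p = 0.0012), and MHT1, which methylates homocysteine (1.74, edgeR adjusted p = 0.0016). Among the 7 regulators it passed for MET32, MET28 and MET30 (0.44 for MET30, edgeR adjusted p = 0.033). MET32 held 1.55, 1.80, 4.98 and 5.68 CPM in pup2-ts replicates 1 to 4, 2.56, 4.62 and 4.27 CPM in rpn5-ts replicates 2 to 4 and 5.77, 3.40, 2.002 and 2.18 CPM in WT replicates 1 to 4. Both mutants were higher in replicates 3 and 4, and WT was higher in replicates 1 and 2. Its interaction of form with pup2-ts against WT was 2.80 on the log2 scale (SE 0.37, edgeR adjusted p = 0.0039). MET28 held 3.94, 4.97, 5.88 and 7.13 CPM in pup2-ts and 15.0, 8.03, 5.31 and 4.24 CPM in WT replicates 1 to 4, with an interaction of 1.84 (SE 0.44, edgeR adjusted p = 0.024). HSU1, a homolog of Met17 reported to use hydrogen sulfide in cells without it, held 28.3, 24.0, 68.3 and 63.8 CPM in pup2-ts replicates 1 to 4, 38.6, 71.2 and 65.6 CPM in rpn5-ts replicates 2 to 4 and 30.9, 37.3, 54.6 and 47.7 CPM in WT replicates 1 to 4. Its levels overlapped between libraries with and without MET17 reads. HSU1 did not pass in any of the 4 comparisons of the main edgeR fit (log2 fold change 0.11 in pup2-ts against WT, edgeR adjusted p = 0.87). Its interaction was 0.75 (SE 0.16, edgeR adjusted p = 0.017).

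**Figure D5:**
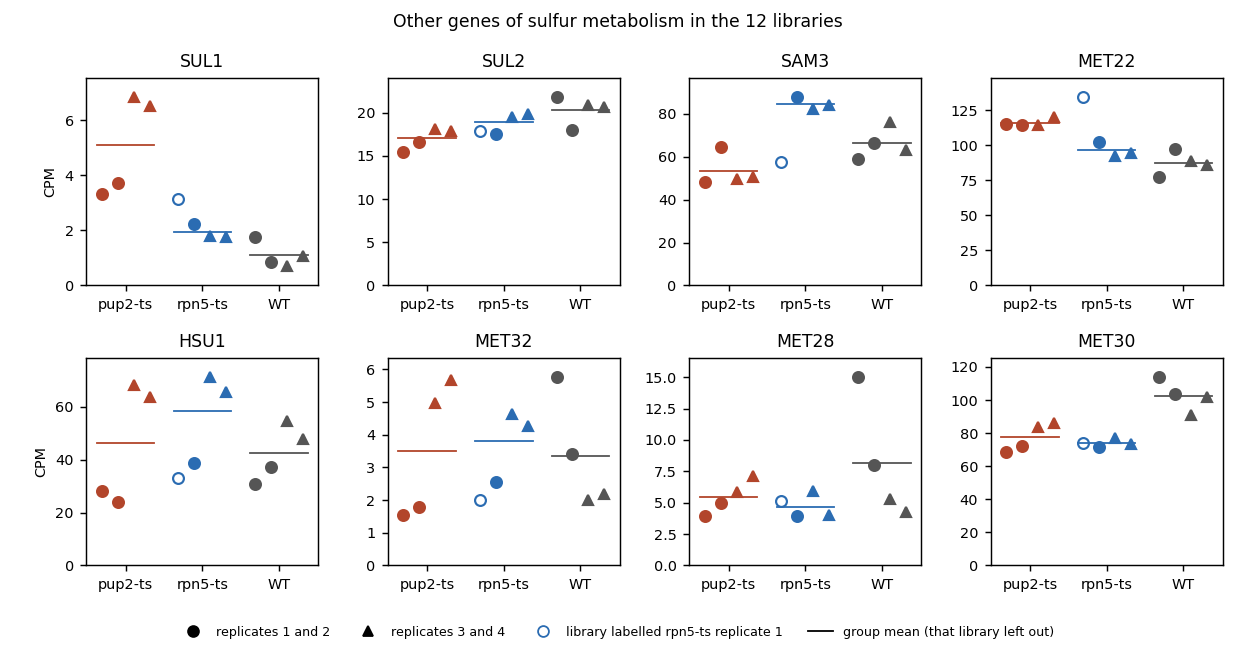
CPM of 8 other genes of sulfur metabolism in each library, by labelled group, with symbols as for the 9 genes: circles for replicates 1 and 2, triangles for replicates 3 and 4, the open circle for the library labelled rpn5-ts replicate 1. SUL1 and MET22 are above all libraries without MET17 reads in all 5 libraries with them, and MET32 is higher in replicates 3 and 4 in the mutants and in replicates 1 and 2 in WT. Between libraries with and without MET17 reads, 2.95% of all genes had ranges that did not overlap.

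The 9 genes did not move as 1 block. Over the 36 pairs among them, Spearman's rho across the 12 libraries ran from −0.66 to 0.83 with a median of 0.15. All points share the libraries, their depth and the replicate forms, so these are descriptions. The mean z score of log2 CPM of the 9 genes was highest in WT replicate 1 (0.92) and lowest in pup2-ts replicate 1 (−0.82). MUP1 followed that mean most closely (rho 0.86), MET14 ran against it (−0.23), and MET17 followed it weakly (0.25). Outside the lists, among 5084 genes with a mean of at least 10 CPM, the 5 most like it over 12 libraries were AIT1 (rho 0.90), YOL036W (0.86), ITC1 (0.85), MRS4 (0.82) and SUT1 (0.80). The 5 least like it were TFG2 (−0.89), EXG1 (−0.83), CBP6 (−0.82), YNL108C (−0.81) and EGO2 (−0.80).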

How the data were processed

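The authors deposited a table of raw counts per annotated feature, made with STAR 2.5.2b and featureCounts of Subread 1.5.1 on the build sacCer3, per the submitters' processing notes. The treatment of reads that map to more than 1 place is not given in the sources used here. The labels name hot acid phenol extraction and DNAse treatment, with polyadenylated RNA libraries from a KAPA mRNA HyperPrep kit. The table's annotated lengths, deposited beside the counts, were used for levels per kb. Of 12768 features, 5585 matched 1 of 6021 protein-coding genes of the R64 table by locus tag. For 92.1% the counted interval contained the R64 coding interval, and of 115 features equal to it in length 21 had the same start, so coordinates in the text are those of R64 and not of the counted intervals.

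The tests came from edgeR 4.0.16 under R 4.3.3, run on the deposited counts (filterByExpr, TMM, robust quasi-likelihood F test, two-sided, Benjamini-Hochberg adjusted p under 0.05 over 5561 genes). The fit used 11 of 12 libraries with 1 shared spread. Standard errors came from the log2 fold change and F. The test was first tried on simulated data. The 22 alternatives were DESeq2 1.42.0, upper-quartile or relative log expression factors, all annotated features, no filter or one at 10 CPM in 3 libraries, a replicate block, name form as a factor, each form alone, the left-out library included, and each of 11 libraries left out. The comparison of forms and its interaction were added after the data were seen. The 10 genes, the lists and the tests were chosen with earlier results of these data known. Named genes were the 10, HSU1, SUL1, SUL2, the 7 regulators, up to 3 genes of each other list past the threshold against the mean of WT and rpn5-ts, the neighbours of MET17, the strain markers, and the 5 genes most and least like the mean z score (pseudocount 0.1 CPM). JLP1, CYS4, MET1, HOM2, HOM3, MUP3 and MHT1 fall outside that rule and were named after their values were seen. The series calls the replicates biological. Same-numbered libraries of different groups shared deviations from the group means in all 10 pairs (correlation 0.32 to 0.86), by which they count as paired, but libraries of the same form and another number did so as well (0.40 to 0.82). Chi-square per degree of freedom between replicates was at least 7.29, so none was a copy of another. Among pairs of the same strain and form it was highest between WT replicates 1 and 2, at 200.9. The next was 87.35, between the library labelled rpn5-ts replicate 1 and rpn5-ts replicate 2. Figures used Python 3.11.15, pandas 2.3.3 and matplotlib 3.10.9.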

Additional observations from a re-analysis of the deposited data

Results flagged for a closer look

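The values of 81 groups of 4 libraries, MET17 aside, were checked for a library far from the other 3, and chance marks about 1 in 20 such groups. In the group labelled rpn5-ts, replicate 1 stood apart for LYS2 (213 CPM), and replicate 2 for HIS3 (67.4 CPM, low). MET17 at 249.4 CPM in the library labelled rpn5-ts replicate 1, which the comparisons leave out, is given as a value with no test. In pup2-ts, replicate 2 stood apart for MET3 (38.0 CPM) and SAM3 (64.4 CPM), both high, and replicate 4 for MET22 (120.1 CPM, high). In WT, replicate 1 stood apart for MET4 (158.7 CPM, high).

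The difference between pup2-ts and WT differed between replicates 3 and 4 and replicates 1 and 2 for 9 of the genes that the rule for named genes picks, by edgeR's interaction test on the log2 scale, and for 5 of the 9 genes other than MET17, 15 of the list of 36 and 16.6% of all genes. The values were 2.80 for MET32 (adjusted p = 0.0039), 2.32 for MET2 (0.036), 1.84 for MET28 (0.024) and 0.76 for MET6 (0.042). They were 0.75 for HSU1 (adjusted p = 0.017), 0.73 for CYS3 (0.0066), 0.64 for MUP1 (0.036), 0.44 for MET30 (0.033) and 0.39 for MET14 (0.048). SAM3 differed between the strains, with a pup2-ts effect minus rpn5-ts effect against WT of −0.67 (edgeR adjusted p = 0.037).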

How the results depend on the processing

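Counts of calls depended on how replicate form was treated. In this paragraph each comparison has its count among the 9 genes and then among all genes. Against the mean of WT and rpn5-ts the main counts were 0 and 263: with the replicate block 2 and 1182, with form as a factor 3 and 1409, with replicates 3 and 4 alone 4 and 2929. All genes called were 31 with replicates 1 and 2 alone, 594 with DESeq2 and 816 with all features. For pup2-ts against WT (3 and 872) they were 6 and 2297 with the block, 6 and 2517 with form, 6 and 3651 with replicates 3 and 4, 5 and 1313 with DESeq2 and 1 and 2495 with all features. For pup2-ts against rpn5-ts (0 and 46) they were 1 and 627 with form and 6 and 1896 with replicates 3 and 4. All genes called were 371 with the block, 4 with replicates 1 and 2, 209 with DESeq2 and 2 with the library labelled rpn5-ts replicate 1 included. For rpn5-ts against WT (1 and 938) they were 4 and 2306 with the block, 4 and 2565 with form, 2 and 572 with replicates 1 and 2, 6 and 3531 with replicates 3 and 4, 2 and 1422 with DESeq2 and 0 and 1818 with all features. The 9 gave 2 with relative log expression factors and 0 with the library labelled rpn5-ts replicate 1. Leaving out 1 library gave 0 to 1 of 9 and 123 to 348 genes against the mean, 0 to 3 and 548 to 903 for pup2-ts against WT, 0 and 8 to 76 against rpn5-ts, and 0 to 1 and 416 to 999 for rpn5-ts against WT.

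Signs reversed with replicates 3 and 4 alone for HSU1 (0.17) and MET32 (0.79) against the mean, MET28 (0.48) in pup2-ts against WT and MET2 (0.54) in rpn5-ts against WT, and with replicates 1 and 2 alone for MET32 (−1.45) in pup2-ts against WT. The cause was not tested. Of the other log2 fold changes of single genes, 2057 kept direction and side of the threshold, 83 lost a call, 105 gained one and 114 changed sign without passing in either fit. No scaling moved the median of all genes by over 0.1.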
